A study of Homo sapiens with 32 samples.

Results

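The 10 genes described here encode the AP-1 transcription factors and associated immediate early factors. They comprise the FOS family (FOS, FOSB, FOSL1, FOSL2), the JUN family (JUN, JUNB, JUND), the stress-induced factor ATF3, the zinc finger factor EGR1 and the early response gene IER3. They were chosen by name, as the rows of the count matrix whose Ensembl identifier maps to one of these symbols, and make up 10 of the 60107 genes counted. All 10 passed the filter on low counts in every comparison.

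The study asked how blocking topoisomerase I or losing the checkpoint kinase ATM affects protein aggregation, and sequenced RNA of HEK293T cells, a line from human embryonic kidney, and of U2OS cells, a human osteosarcoma line, with 4 libraries per arm. U2OS cells received DMSO (columns 30 to 33 of the count matrix) or camptothecin (CPT, columns 26 to 29), a topoisomerase I poison, for 24 h and recovered for 48 h. HEK293T cells received DMSO (columns 22 to 25) or the ATM inhibitor Ku-55933 (columns 18 to 21) on the same schedule. The labels call columns 18 to 21 ATM KO, while the study describes an inhibitor for HEK293T RNAseq.

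The other libraries have labels that go against their profiles. Columns 2, 4, 6 and 8 are labelled HEK293T CPT, columns 3, 5 and 7 HEK293T DMSO and column 1 U2OS WT. Summed CPM (counts divided by the library's total on genes, times 1000000) of 7 U2OS marker genes lay between 4278 and 8167 in columns 1 to 8, against 4749 to 9412 in columns 26 to 33 and 79.5 to 119 in columns 18 to 25. Columns 10, 12, 14 and 16 are labelled U2OS ATM KO, columns 11, 13 and 15 U2OS WT and column 17 HEK293T DMSO. In columns 10 to 17 the U2OS markers summed to 75.1 to 255 CPM, and 6 HEK293T markers to 915 to 1436 CPM against 724 to 867 in columns 18 to 25. The labelled cell line was thus at odds with the markers in 14 of 16 libraries. The rule used here takes columns 10 to 17 as HEK293T CPT against DMSO and columns 1 to 8 as U2OS ATM KO against wild type, with the even columns as the treated or knockout arm. Labels and rule share these arms but, in those 14 libraries, not the cell line or treatment. Both sets are therefore named by column, and directions are given between even and odd columns only. For U2OS ATM KO cells the study picked single CRISPR clones, so clone and genotype cannot be told apart. This limit applies to columns 2, 4, 6 and 8 by the rule and to columns 10, 12, 14 and 16 by the labels.

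AP-1 is a dimer of basic leucine zipper proteins. FOS proteins bind DNA mainly when paired with a JUN protein or another zipper protein, whereas JUN proteins also pair with each other. Growth factor and stress signals reach these genes within minutes through MAP kinases, serum response factor (SRF) and its ETS-family partners, and the dimers act on sites known as TRE and CRE. Most of their mRNAs are short-lived, so libraries made after 48 h of recovery hold late levels and not the first burst. In all comparisons fewer cells expressing a gene and less RNA per cell cannot be told apart.

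The regulatory sequence of some of the factors, chosen with their results known, is shown first. Each line gives the 250 bases before the transcription start from RefSeq (GRCh38.p14), on the gene's own strand. EGR1 (chr5:138465229-138465478, plus strand), FOS (chr14:75278578-75278827, plus) and JUNB (chr19:12791236-12791485, plus) moved together in columns 10 to 17, and JUN (chr1:58784048-58784297, minus) and JUND (chr19:18281623-18281872, minus) were not called there. FOSB and FOSL2, also called higher there, and ATF3, not called there, are not printed, and their motifs follow the sequences. Capitals mark the motifs found.
EGR1: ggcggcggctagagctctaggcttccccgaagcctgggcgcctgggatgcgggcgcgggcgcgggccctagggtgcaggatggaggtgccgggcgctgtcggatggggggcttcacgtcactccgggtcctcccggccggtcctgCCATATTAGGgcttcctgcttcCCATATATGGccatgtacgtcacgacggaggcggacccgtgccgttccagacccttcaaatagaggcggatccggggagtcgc
FOS: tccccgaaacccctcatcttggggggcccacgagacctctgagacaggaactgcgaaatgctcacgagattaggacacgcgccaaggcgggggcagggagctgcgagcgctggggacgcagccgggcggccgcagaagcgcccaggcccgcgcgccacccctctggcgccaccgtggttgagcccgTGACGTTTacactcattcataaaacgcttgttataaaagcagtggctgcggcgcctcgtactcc
JUNB: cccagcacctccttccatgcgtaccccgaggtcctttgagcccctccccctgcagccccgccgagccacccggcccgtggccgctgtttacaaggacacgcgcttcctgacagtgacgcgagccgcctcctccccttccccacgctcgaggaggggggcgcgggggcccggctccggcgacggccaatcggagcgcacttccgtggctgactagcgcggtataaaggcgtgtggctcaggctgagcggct
JUN: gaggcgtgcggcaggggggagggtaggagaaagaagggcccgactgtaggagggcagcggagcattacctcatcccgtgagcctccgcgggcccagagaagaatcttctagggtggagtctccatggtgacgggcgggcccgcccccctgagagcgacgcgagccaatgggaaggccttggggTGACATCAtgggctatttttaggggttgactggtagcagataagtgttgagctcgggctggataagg
JUND: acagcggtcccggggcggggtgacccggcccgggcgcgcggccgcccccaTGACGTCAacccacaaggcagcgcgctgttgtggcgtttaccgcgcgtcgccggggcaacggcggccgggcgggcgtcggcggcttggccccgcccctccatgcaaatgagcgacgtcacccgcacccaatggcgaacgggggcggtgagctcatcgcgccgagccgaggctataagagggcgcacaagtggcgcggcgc
The capitals are 2 CArG boxes in EGR1, the core site of SRF, 105 and 83 bases before the start, the CRE-like TGACGTTT 64 bases before the FOS start, the AP-1-like TGACATCA 67 bases before the JUN start and the CRE TGACGTCA 200 bases before the JUND start. None of the searched motifs lay in the JUNB window. Both strands were searched over 300 bases (250 before to 50 after the start) for TRE (TGAGTCA or TGACTCA), TGACGTCA, TGACGTTT, TGACATCA, the CArG box and the EGR site GCGTGGGCG, and no found motifs overlapped. RefSeq windows were at hand for 8 of the 10 genes, FOSL1 and IER3 being absent. The other windows held TGACATCA 123 bases before 1 of 2 ATF3 starts, TGACTCA 5 bases after the FOSL2 start and no motif in FOSB. Among 35116 promoter windows of that length, 1.29% held a CArG box, 4.95% a TRE, 1.85% TGACGTCA, 0.487% TGACGTTT, 2.61% TGACATCA and 0.795% the EGR site. A match describes letters only and is not evidence of binding. Bases outside these windows were not searched, so a motif missing from a window, such as the CArG box in FOS, may lie further out.

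Depth lay between 1232674 and 6362433 counts on genes per library (median 3359464), so 1 count was worth less than 1 CPM in every library. Since the QuantSeq method reads 3′ ends with molecular identifiers, counts do not grow with gene length. Levels of different genes are set side by side in CPM, but how evenly their 3′ ends were captured was not tested. The study describes its repeats as independent, and the p-values measure the spread between them. A gene was called where edgeR's quasi-likelihood test gave an adjusted p (Benjamini-Hochberg) below 0.05 and the log2 fold change exceeded 1 in either direction.

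To see what each line started from, U2OS and HEK293T cells given DMSO were compared. Of the 10 genes, 6 were higher in U2OS cells and 2 lower, where 21.8% of 19739 tested genes were called higher and 18.1% lower. The plot of the factors by library shows that the lines differ mostly in IER3, FOSL2 and EGR1.

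IER3, which encodes an early response protein linked to cell survival, was the most abundant of the genes in U2OS DMSO libraries, with 772, 978, 741 and 914 CPM in columns 30 to 33. In HEK293T DMSO libraries it reached only 24.5, 22.6, 24.3 and 23.7 CPM in columns 22 to 25. The log2 difference was 5.39 ± 0.14 (SE; adjusted p = 3.7e-26), and no library of one line came near the other. FOSL2, the FOS family member that is often expressed without a stimulus, followed with 265, 214, 188 and 177 CPM against 5.68, 6.57, 5.76 and 4.15 CPM, a log2 difference of 5.46 ± 0.16 (adjusted p = 9.37e-25). EGR1, a zinc finger factor induced through SRF, stood at 63.9, 89.5, 68.6 and 73.1 CPM against 2.69, 0.857, 4.01 and 3.26 CPM. That difference was 4.96 ± 0.21 on the log2 scale (adjusted p = 3.12e-20), again without overlap.

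FOS, the founding member of its family, was scarce in both lines. It gave 8.64, 6.19, 3.81 and 2.64 CPM in U2OS DMSO libraries and 0.598, 0, 1.25 and 0.592 CPM in HEK293T DMSO libraries (log2 difference 3.18 ± 0.48, adjusted p = 6.43e-07). FOSL1 (2.002 ± 0.56, adjusted p = 0.00238, or 3.09 without column 22) and JUNB (1.99 ± 0.23, adjusted p = 2.02e-09) were also higher in U2OS cells. In the opposite direction, JUN, which can form AP-1 by itself, had 172, 165, 126 and 119 CPM in U2OS against 338, 293, 498 and 424 CPM in HEK293T (log2 difference -1.20 ± 0.13, adjusted p = 1.06e-09). ATF3, a factor of the same zipper class that is induced by many stresses, had 6.48, 11.4, 6.15 and 8.41 CPM against 46.7, 50.6, 75.9 and 65.8 CPM (-2.66 ± 0.19, adjusted p = 1.92e-14). JUND (0.11, 95% interval -0.14 to 0.36) and FOSB (0.16, -1.09 to 1.41) were not called, and both values turn negative when library totals replace the TMM scaling. Line and any difference in how the sets were prepared cannot be told apart here.

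The order of the levels in U2OS DMSO libraries was IER3, FOSL2, JUN, JUND, EGR1, JUNB, ATF3, FOS, FOSL1 and FOSB. Neighbours whose libraries overlapped were JUND (69.7 to 105 CPM) with EGR1 (63.9 to 89.5), ATF3 (6.15 to 11.4) with FOS (2.64 to 8.64), and FOS with FOSL1 (1.68 to 2.78). HEK293T DMSO libraries put JUN first, then JUND (85.4 to 114 CPM), ATF3 and IER3, all apart from each other. Below them JUNB (4.76 to 7.48 CPM) overlapped FOSL2 (4.15 to 6.57), and EGR1 (0.857 to 4.01 CPM), FOSB, FOSL1 and FOS followed, the last 3 at 0 to 1.79 CPM, with EGR1 overlapping each of them.

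Summed over each family, the FOS genes gave 219.8 ± 42.3 CPM in U2OS DMSO libraries (SD, n = 4) and 7.71 ± 1.05 CPM in HEK293T DMSO libraries. Most of the U2OS sum was FOSL2, with 211 CPM. The JUN genes summed to 256 ± 52.7 and 489 ± 102 CPM. In CPM, the JUN family sum therefore exceeded the FOS family sum by far in HEK293T cells, while both sums were of like size in U2OS cells. The plot of family sums shows this for all 8 arms.

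**Figure D1:**
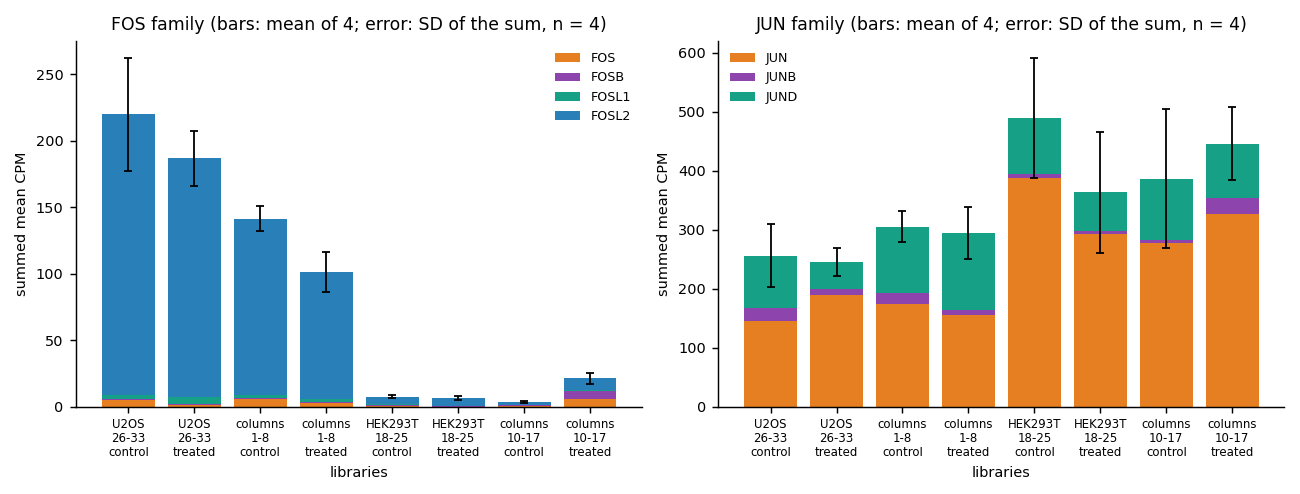
Summed mean CPM of the FOS family (left) and the JUN family (right) in the 8 arms, stacked by gene, with error bars of 1 SD of the summed level (n = 4). FOSL2 fills most of the FOS family bar in columns 26 to 33 and 1 to 8, and the FOS family bar of columns 10, 12, 14 and 16 (21.4 CPM) stands above that of columns 11, 13, 15 and 17 (3.55 CPM).

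CPT treatment of U2OS cells was examined next. Of the 10 genes, 2 rose (FOSL1 and ATF3) and 3 fell (FOS, JUNB and IER3), where 7.97% of 19080 tested genes were called higher and 5.5% lower. ATF3 changed most, from 6.48, 11.4, 6.15 and 8.41 CPM in columns 30 to 33 to 38.0, 40.3, 35.0 and 36.2 CPM in columns 26 to 29. The log2 fold change was 2.38 ± 0.18 (SE; adjusted p = 2.62e-12), and every CPT library lay above every DMSO library. FOSL1, the FOS family member associated with migrating and transformed cells, rose from 2.78, 2.41, 2.34 and 1.68 CPM to 8.24, 4.03, 3.12 and 6.55 CPM (1.45 ± 0.34, adjusted p = 0.00111). Its arms were likewise apart, at 31 and 71 counts in all.

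FOS moved the other way in the same libraries. It fell from 8.64, 6.19, 3.81 and 2.64 CPM to 2.06, 0.620, 1.04 and 1.25 CPM, a log2 fold change of -1.83 ± 0.42 (adjusted p = 0.000834) on 70 and 16 counts. JUNB, a JUN protein that often restrains JUN, fell from 32.1, 26.5, 18.2 and 13 CPM to 12.7, 9.93, 7.27 and 8.42 CPM (-1.01 ± 0.22, adjusted p = 0.000508). IER3 fell from 741 to 978 CPM to 364, 349, 408 and 379 CPM (-1.01 ± 0.12, adjusted p = 2.26e-08). For all 3 genes the highest CPT library lay below the lowest DMSO library. The folds of JUNB and IER3 sat at the cutoff. JUNB dropped under it without column 28 (-0.90), 29 (-0.94), 30 (-0.82) or 31 (-0.94), and IER3 without column 26 (-0.9999), 27 (-0.99), 31 (-0.97) or 33 (-0.95), with adjusted p below 0.05 throughout, so 3 genes remained called without column 31.

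Of the other 5 genes, 3 passed the adjusted p but not the fold cutoff. JUND, the JUN protein that most cells make constitutively, went from 105, 101, 76.5 and 69.7 CPM to 33.2, 40.0, 47.1 and 61.8 CPM (-0.77 ± 0.15, adjusted p = 0.000111) without overlap. EGR1 went from 63.9 to 89.5 CPM to 39.1, 40.9, 52.6 and 48.0 CPM (-0.54 ± 0.13, adjusted p = 0.00205), also without overlap. JUN went from 119 to 172 CPM to 232, 175, 183 and 169.7 CPM (0.57 ± 0.12, adjusted p = 0.000438), where column 29 lay just below column 30. FOSL2 stayed at 161 to 205 CPM against 177 to 265 CPM (-0.05, 95% interval -0.29 to 0.18), and FOSB at 0 to 1.56 CPM against 0.586 to 1.38 CPM (-0.14, -1.54 to 1.27). In this comparison 7 of the 10 genes had arms that did not overlap, as had 31.3% of all genes tested. The 7 U2OS markers summed to 7937 to 9412 CPM after CPT and 4749 to 6071 CPM with DMSO, with 4 of 7 called higher. The HEK293T markers summed to 50.6 to 58.3 CPM after CPT and 55.1 to 67.7 CPM with DMSO, with 2 of 5 tested called lower. What part the markers of either line had in the result was not tested.

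Since columns 10 to 17 carry HEK293T markers and are taken by the rule as HEK293T CPT, their even and odd columns were compared in the same way. Of the 10 genes, 7 were higher in the even columns and 0 lower, where 9.52% of 19464 tested genes were called higher and 4.45% lower. The 7 include FOSL1, which passed the low-count filter only through the even columns. With edgeR's filterByExpr as the filter, 6 were higher. FOS gave 3.67, 7.72, 7.04 and 5.97 CPM in columns 10, 12, 14 and 16 and 0.505, 0.338, 0.444 and 0.665 CPM in columns 11, 13, 15 and 17. The log2 fold change was 3.56 ± 0.38 (adjusted p = 1.87e-07), on 97 and 10 counts. FOSB, a close relative of FOS, showed 6.43, 7.41, 4.16 and 5.03 CPM against 0.674, 0.677, 0.667 and 1.11 CPM (2.82 ± 0.35, adjusted p = 1.43e-06). FOSL2 showed 10.7, 10.8, 5.76 and 8.17 CPM against 1.85, 2.20, 2.44 and 2.44 CPM (1.96 ± 0.27, adjusted p = 5.75e-06). In all 3 genes the even columns lay wholly above the odd ones.

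JUNB was the JUN family gene that changed in these columns, with 28.8, 34.6, 22.1 and 21.2 CPM against 5.22, 2.54, 5.56 and 4.21 CPM (2.58 ± 0.23, adjusted p = 9.41e-09). EGR1, whose promoter window holds both CArG boxes shown above, gave 19.9, 21, 25.9 and 25.5 CPM against 2.86, 5.42, 3.11 and 2.66 CPM (2.66 ± 0.23, adjusted p = 6.39e-09). IER3 gave 77.8, 84.9, 57.9 and 91.6 CPM against 15.3, 12.2, 12.9 and 16 CPM (2.45 ± 0.15, adjusted p = 7.6e-11). None of these 3 genes had overlapping arms, and IER3 had the smallest adjusted p of the 10.

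FOSL1 was called on very few counts and passed the low-count filter only through the even columns, so its call adds nothing to the other 6. It had 0.612, 0.617, 0 and 1.41 CPM in the even columns and 0.168, 0, 0 and 0 CPM in the odd ones, 13 counts against 1. The ratio of the pooled shares was 16.95 with a 95% counting interval of 2.55 to 720, and the fitted log2 fold change of 3.41 ± 1.04 (adjusted p = 0.0136) was no longer called without column 16 (2.52, adjusted p = 0.142) or with DESeq2 (adjusted p = 0.0554). JUN ranged from 256 to 375 CPM against 144 to 349 CPM (0.22, 95% interval -0.14 to 0.58), and JUND from 81.6 to 105 CPM against 68.5 to 125 CPM (-0.18, -0.48 to 0.11). ATF3 gave 84.8, 100.3, 67.8 and 133 CPM against 56.6, 58.7, 150.2 and 52.3 CPM (0.28, -0.22 to 0.77), with column 15 far above the other odd columns. Without column 15 its log2 fold change was 0.76 (adjusted p = 0.00272), under the fold cutoff. Thus 6 genes had arms that did not overlap, against 31% of all genes tested. Markers of the other line moved along with these genes. The 7 U2OS markers summed to 165 to 255 CPM in the even and 75.1 to 82.9 CPM in the odd columns, and the 6 HEK293T markers to 915 to 1219 and 1107 to 1436 CPM. Of the 6 U2OS markers tested, 3 were called higher, 1 of which, CD44, passed the filter only through the even columns. Another was CLU, with 109 ± 28.4 against 36.1 ± 7.84 CPM, whereas CLU had over 1673 CPM in every one of columns 26 to 33. The part of these markers in the result was not tested.

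HEK293T cells given the ATM inhibitor were then compared with those given DMSO. None of the 10 genes was called, and neither was any of the 18413 genes tested by edgeR's quasi-likelihood test (0% higher, 0% lower), of which 510 higher and 509 lower had an unadjusted p under 0.05. The likelihood ratio test called 2 genes and DESeq2 0, and leaving out column 21 gave 14 calls and column 18 gave 1, none of them among the 10. ATF3 gave 37.2, 47.3, 36.4 and 41.8 CPM with inhibitor and 46.7, 50.6, 75.9 and 65.8 CPM with DMSO (log2 fold change -0.50, 95% interval -0.78 to -0.21, adjusted p = 0.753). JUND gave 49.4, 47.0, 61.3 and 103 CPM against 89.7, 85.4, 114 and 87.7 CPM (-0.49, -0.80 to -0.19, adjusted p = 0.753), and JUN 229, 243, 299 and 399 CPM against 338, 293, 498 and 424 CPM (-0.36, -0.64 to -0.08, adjusted p = 0.851). These 3 had an unadjusted p under 0.05, of 0.00114, 0.00231 and 0.0146, yet the arms of each overlapped. For JUND the overlap rests on column 21, without which the log2 fold change was -0.75 (adjusted p = 0.000586, the lowest of its alternatives, which reached 1), under the fold cutoff.

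Among the remaining genes in the inhibitor comparison, IER3 lay at 21.4 to 31.9 CPM against 22.6 to 24.5 CPM (0.18, -0.11 to 0.46), JUNB at 4.61 to 6.63 against 4.76 to 7.48 CPM (-0.20, -0.70 to 0.31) and FOSL2 at 3.83 to 8.22 against 4.15 to 6.57 CPM (0.15, -0.38 to 0.68). EGR1 lay at 0.814 to 4.80 against 0.857 to 4.01 CPM (-0.04, -0.91 to 0.83). For the scarcest genes the depth set the limit. FOS had 2 counts with inhibitor and 9 with DMSO (pooled ratio 0.242, counting interval 0.0254 to 1.17), FOSL1 3 and 9 (0.363, 0.0632 to 1.45) and FOSB 7 and 13 (0.586, 0.198 to 1.58), and each interval includes 1. FOS and FOSL1 passed the filter only through their DMSO libraries. In this comparison 0 of the 10 genes had arms apart, and 3.07% of all genes tested had.

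Columns 1 to 8 carry U2OS markers and are taken by the rule as ATM KO (even) against wild type (odd). Of the 10 genes, 0 were higher and 3 lower in the even columns, namely JUNB, EGR1 and IER3, where 2.8% of 18591 tested genes were called higher and 2.44% lower. ATM itself, the targeted gene, gave 61.7, 52.9, 54.7 and 34.2 CPM in columns 2, 4, 6 and 8 and 57.2, 68.4, 53.4 and 63.5 CPM in columns 1, 3, 5 and 7 (log2 fold change -0.31 ± 0.17, adjusted p = 0.255). A 3′ tag need not lie in the edited part of the gene, so this value does not check the labels. Across all other columns ATM lay between 21.2 and 87.7 CPM.

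IER3 showed the smallest adjusted p among them, with 195, 245, 222 and 337 CPM in the even and 553, 592, 595 and 818 CPM in the odd columns (-1.38 ± 0.16, adjusted p = 1.36e-09). EGR1 followed with 37.3, 36.1, 34.7 and 29.2 CPM against 84.7, 93.0, 63.2 and 81.0 CPM (-1.28 ± 0.17, adjusted p = 4.88e-08). JUNB gave 7.30, 14, 7.46 and 8.94 CPM against 18.3, 14.7, 19.7 and 20.4 CPM (-1.04 ± 0.23, adjusted p = 0.000759). For all 3 the even columns lay below the odd ones, though column 4 came close to column 3 for JUNB. JUNB sat at the fold cutoff and fell short of it without column 2 (-0.9991), 6 (-0.92) or 8 (-0.9996), and with library totals in place of TMM (-0.9991), at adjusted p below 0.05.

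FOSL2 passed the adjusted p but not the fold cutoff, with 87.6, 86.1, 91.3 and 117 CPM against 122, 136, 126 and 146 CPM (-0.50 ± 0.15, adjusted p = 0.0126). Its arms were apart, so 4 genes were in all, where 13.6% of all genes tested were. FOS gave 1.62, 4.81, 3.64 and 2.58 CPM against 8.47, 5.62, 4.38 and 5.18 CPM (-0.81, 95% interval -1.52 to -0.10, adjusted p = 0.127), with column 4 inside the range of the odd columns. JUN (133 to 185 against 151 to 188 CPM), JUND (96.7 to 167 against 95.2 to 136 CPM), ATF3 (11.4 to 19.1 against 9.86 to 15.8 CPM), FOSL1 (1.44 to 3.78 against 1.91 to 2.82 CPM) and FOSB (0 to 0.962 against 0 to 1.41 CPM) overlapped between arms, with adjusted p from 0.401 to 0.846. U2OS markers summed to 4278 to 5414 CPM in the even and 5716 to 8167 CPM in the odd columns and HEK293T markers to 72.2 to 107 and 46.6 to 66.5 CPM, and their part in the result was not tested.

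To find where the responses themselves differed, the U2OS CPT response was set against that of the 2 column sets in a model with an interaction term. Both tests use the same U2OS libraries and are not independent of each other. Cell line, treatment and set cannot be told apart in the test against columns 10 to 17. Against columns 10 to 17, 7 of the 10 genes differed, 6 with the lower value in U2OS CPT and 1 with the higher, where 5.15% of 22363 tested genes were called higher and 6.71% lower. FOS differed most, by -5.39 on the log2 scale (95% interval -6.56 to -4.22, adjusted p = 8.58e-10), having fallen in U2OS CPT and being higher in the even columns 10 to 16. JUNB (-3.58, -4.23 to -2.93, adjusted p = 8.79e-12) and IER3 (-3.47, -3.87 to -3.07, adjusted p = 7.2e-18) were called in opposite directions in the 2 sets. EGR1 (-3.20, -3.72 to -2.68, adjusted p = 2.92e-13), FOSB (-2.95, -4.49 to -1.40, adjusted p = 0.00365) and FOSL2 (-2.01, -2.54 to -1.47, adjusted p = 1.12e-07) were called only in columns 10 to 17. ATF3 had the reverse pattern (2.09, 1.40 to 2.78, adjusted p = 7.71e-06). For FOSL1 the difference was -1.89 (-3.88 to 0.11), with -3.12 without column 11 and -0.95 without column 16, for JUN 0.34 (-0.10 to 0.79) and for JUND -0.58 (-1.01 to -0.16, adjusted p = 0.044), none of them past the threshold.

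**Figure D2:**
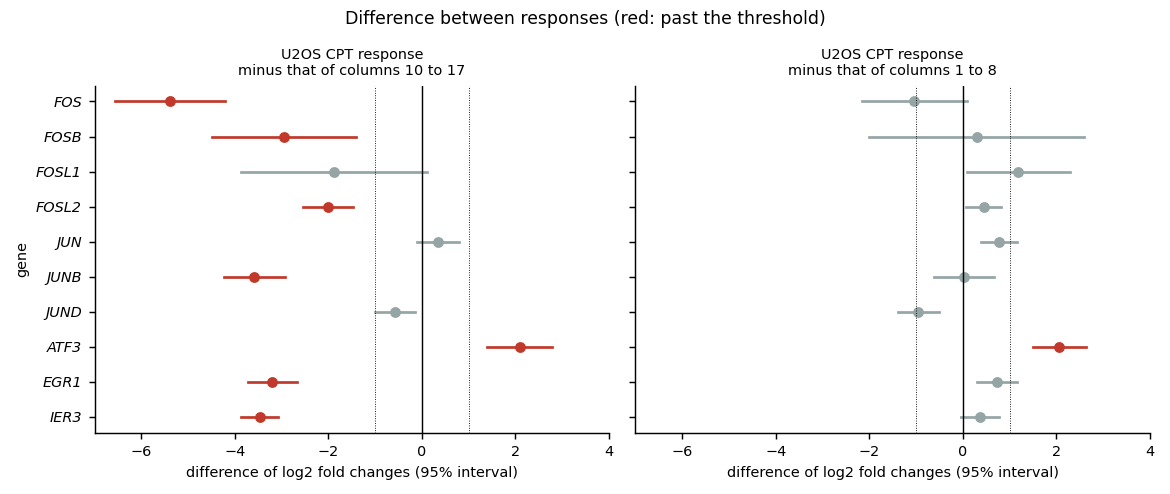
Difference between the log2 fold change of U2OS CPT and that of columns 10 to 17 (left) or columns 1 to 8 (right) for each gene, with 95% intervals, red where past the threshold. On the left FOS, JUNB, IER3, EGR1, FOSB and FOSL2 lie below 0 and ATF3 above, and on the right ATF3 alone is past the threshold.

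Against columns 1 to 8, ATF3 was the gene of the 10 that differed (2.07, 95% interval 1.497 to 2.63, adjusted p = 5.75e-08), where 5.58% of 20539 tested genes were called higher and 5.19% lower. JUND passed the adjusted p but not the fold cutoff (-0.95, -1.38 to -0.52, adjusted p = 0.000766), and it did pass both without column 1 (-1.03), 4 (-1.04), 29 (-1.12) or 33 (-1.05), which makes 2 genes. The same holds for JUN (0.77, 0.38 to 1.16, adjusted p = 0.00227) and EGR1 (0.74, 0.31 to 1.17, adjusted p = 0.00961) at the adjusted p alone. Of the genes that were lower in both sets, JUNB differed by 0.03 (-0.61 to 0.66) and IER3 by 0.37 (-0.03 to 0.77), intervals that leave room for differences of that size. FOS differed by -1.03 (-2.16 to 0.09), FOSL1 by 1.19 (0.09 to 2.28, adjusted p = 0.133), FOSL2 by 0.45 (0.07 to 0.82, adjusted p = 0.0923) and FOSB by 0.30 (-1.997 to 2.59).

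The genes around these factors were counted from lists of their neighbours in the pathway. Each list's counts stand beside the shares of all tested genes called higher and lower, which were 7.97% and 5.5% in U2OS CPT, 9.52% and 4.45% in columns 10 to 17 and 2.8% and 2.44% in columns 1 to 8. Among 24 other immediate early genes, 21 were tested in U2OS CPT, where 7 rose and 1, IER5L, fell (-1.16 ± 0.32, adjusted p = 0.00464), with a median log2 fold change of 0.59 against 0.01 over all genes. This median and the next 2 leave out a gene that passed the low-count filter through 1 arm only, here NR4A3. The leading ones were PLK3, a stress-responsive kinase (14.7 ± 2.31 against 5.46 ± 0.804 CPM, SD, n = 4; log2 fold change 1.59 ± 0.21, adjusted p = 5.13e-07), TRIB1 (1.37 ± 0.15, adjusted p = 7.92e-09), MYC (1.32 ± 0.17, adjusted p = 1.85e-07) and KLF6 (1.32 ± 0.13, adjusted p = 1.32e-09). In columns 10 to 17, all 24 were tested, 13 were higher and 1 lower, with a median of 1.16 (without EGR4) against 0.04. The lower one was MYC, the growth regulator, at 11.5 ± 4.9 against 104 ± 47 CPM (-3.27 ± 0.29, adjusted p = 1.49e-08), while PLK2 (3.22 ± 0.21, adjusted p = 1.77e-10), ARC (2.93 ± 0.40, adjusted p = 4.98e-06) and EGR3, a relative of EGR1 (2.70 ± 0.57, adjusted p = 0.000788), were higher. Columns 1 to 8 had 0 higher and 2 lower of 22 (EGR2, -1.97 ± 0.66, adjusted p = 0.0364; CCN1, -1.18 ± 0.19, adjusted p = 3.08e-06), with a median of -0.13 (without EGR3) against 0.04.

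A further list held phosphatases and inhibitors that switch MAP kinase signalling off, along with the mRNA-decay factors ZFP36, ZFP36L1 and ZFP36L2. In columns 10 to 17, 8 of 16 tested were higher and 0 lower, against 9.52% and 4.45% of all genes. SPRY4 passed the low-count filter only through the even columns, and without it 7 of 15 were higher, with a median log2 fold change of 1.097. They included DUSP6, a phosphatase of ERK (9.27 ± 1.7 against 0.88 ± 0.27 CPM; 3.35 ± 0.31, adjusted p = 2.27e-08), DUSP5 (3.53 ± 0.31, adjusted p = 8.19e-09) and SPRY2 (1.57 ± 0.22, adjusted p = 5.9e-06), while SPRY4 had no count in the odd columns and was at least 2.61-fold higher against a floor of 3 counts over the group. Columns 1 to 8 had 0 higher and 2 lower of 15, again DUSP6 (0.552 ± 0.43 against 4.76 ± 1.1 CPM; -2.73 ± 0.48, adjusted p = 2.3e-05) and SPRY2 (-1.44 ± 0.27, adjusted p = 9.45e-05), with a median of -0.06. In U2OS CPT 3 of 16 rose and 2 fell, with a median of 0.05. DUSP1, which inactivates stress-activated kinases (2.10 ± 0.22, adjusted p = 6.58e-09), and DUSP10 (1.28 ± 0.27, adjusted p = 0.000355) rose, and SPRY2 (-1.26 ± 0.28, adjusted p = 0.000805) and SPRY1, without a count after CPT and at least 4.33-fold lower, fell, SPRY1 having passed the filter only through the DMSO libraries.

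Genes long used as AP-1 targets were counted as well. In U2OS CPT 5 of 16 rose and 0 fell, with a median log2 fold change of 0.62. MMP3, a matrix protease, went from 0.988 ± 0.51 to 53.1 ± 19 CPM (5.92 ± 0.30, adjusted p = 2.51e-16), followed by CD44, a hyaluronan receptor (2.72 ± 0.12, adjusted p = 6.85e-18), IL11 (1.81 ± 0.20, adjusted p = 1.73e-08) and TIMP1 (1.44 ± 0.12, adjusted p = 8.2e-11). CD44 is also 1 of the 7 U2OS markers, of which 4 rose with CPT. In columns 10 to 17, 8 of 15 were called higher and 0 lower, but 5 of these (MMP9, MMP13, CXCL8, SPP1 and CD44) passed the low-count filter only through the even columns. Of the 7 targets that passed it in both arms 3 were higher, and these are named after their values were seen. They were HMOX1, a heme-degrading enzyme (43.1 ± 7.41 against 9.36 ± 1.69 CPM; 2.18 ± 0.17, adjusted p = 1.68e-09), PLAU, the urokinase protease (1.52 ± 0.48, adjusted p = 0.0162), and CCND1, which encodes cyclin D1 (1.06 ± 0.13, adjusted p = 1.46e-06). MMP13 had no count in the odd columns and 22 in the even ones (at least 9.56-fold higher against 3 counts over the group), and the chemokine gene CXCL8 had 2 and 68 counts (ratio 44.3, counting interval 11.8 to 374). SPP1 had 2 and 14 counts (9.13, 2.10 to 82.8) and CD44 2 and 11 (7.17, 1.57 to 66.6). Columns 1 to 8 had 2 higher and 2 lower of 16 (MMP9, -2.36 ± 0.56, adjusted p = 0.00199; MMP3, 1.57 ± 0.41, adjusted p = 0.00565; LIF, -1.15 ± 0.39, adjusted p = 0.0408; HMOX1, 1.01 ± 0.20, adjusted p = 0.000159), with a median of -0.49.

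Other zipper proteins that pair with FOS or JUN made up a list of their own. MAFF (1.26 ± 0.20, adjusted p = 6.08e-06), CREB5 (1.22 ± 0.11, adjusted p = 3.36e-10) and MAFK (1.099 ± 0.13, adjusted p = 5.35e-08) rose in U2OS CPT, making 3 of 10 (median -0.08). In columns 10 to 17, 2 were higher and 1 lower of 12. MAFF was higher (1.80 ± 0.26, adjusted p = 1.29e-05) and JDP2, a repressor of AP-1, lower (-1.46 ± 0.27, adjusted p = 0.000193), with a median of 0.15 over the 12 tested. Columns 1 to 8 had 1 lower of 10, MAF (-1.31 ± 0.18, adjusted p = 9.37e-08; median 0.06). Kinases of the MAP kinase route with SRF-linked and ETS-family factors gave 0 calls of 18 in U2OS CPT (median -0.16), 0 of 19 in columns 10 to 17 (-0.10) and 1 lower of 18 in columns 1 to 8 (-0.18), MRTFA (-1.10 ± 0.27, adjusted p = 0.00285). With the ATM inhibitor 0 genes of these 5 lists were called, with medians from -0.25 to -0.05.

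As genes often read as a sign of damage, 8 targets of p53 were counted. Whether p53 itself acted on these 8 genes was not tested in either line. Of all tested genes, 7.97% were called higher in U2OS CPT, 9.52% in columns 10 to 17 and 2.8% in columns 1 to 8. In U2OS CPT 7 rose (median log2 fold change 1.72), led by GDF15 (3.63 ± 0.16, adjusted p = 8.28e-18), CDKN1A (2.24 ± 0.11, adjusted p = 1.85e-16) and MDM2 (1.9999 ± 0.11, adjusted p = 1.17e-15). In columns 10 to 17, 5 were higher (median 1.08), led by GDF15 (2.94 ± 0.38, adjusted p = 2.91e-06) and CDKN1A (2.17 ± 0.22, adjusted p = 8.79e-08). Columns 1 to 8 had 1 higher, GDF15 (1.25 ± 0.17, adjusted p = 1.64e-07; median 0.30), and the inhibitor 0 (median -0.13). BTG2 is both a p53 target and an immediate early gene, and is counted in both lists.

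Some of the 10 genes overlap others in GENCODE 29 (GRCh38), and whether the counting used strand is not given in the sources used here. FOSB (chr19:45467995-45475179) lies against ERCC1, JUNB (chr19:12791496-12793315) against HOOK2 and IER3 (chr6:30743199-30744554) against IER3-AS1, each on the opposite strand. FOSL2 (chr2:28392448-28417312) shares its strand with AC104695.3, which had arm means of 16.7 to 19.8 CPM where U2OS markers were present, and lies against FLJ31356, with arm means of at most 0.775 CPM. ERCC1 had lower values in the even columns of columns 10 to 17 (-0.80 ± 0.17, adjusted p = 0.00111) and of columns 1 to 8 (-0.83 ± 0.20, adjusted p = 0.00192), under the fold cutoff, while FOSB was called higher in the first set and not called in the second. HOOK2, IER3-AS1 and AC104695.3 had adjusted p from 0.161 to 0.977 in the 4 comparisons. Between the lines AC104695.3 was higher in U2OS DMSO libraries, as was FOSL2, at 19.8 against 0.20 CPM (6.52 ± 0.39, adjusted p = 2.91e-16), and HOOK2 had a log2 difference of -0.41 (adjusted p = 0.0285), under the fold cutoff. The other genes, FOS (chr14:75278774-75282230), FOSL1 (chr11:65892049-65900573), JUN (chr1:58780788-58784327), JUND (chr19:18279760-18281622), ATF3 (chr1:212565334-212620777) and EGR1 (chr5:138465490-138469315), were not listed with an overlapping gene.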

How the data were processed

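RNA (QuantSeq 3′ mRNA libraries with molecular identifiers) was measured in 32 libraries of HEK293T and U2OS cells. The authors deposited raw counts per gene, made per the labels with the Lexogen QuantSeq FWD UMI pipeline 2.3.1 on the BlueBee platform 1.10.18. Aligner settings, genome build and annotation are not given in the sources used here. The 5 summary rows (10.9% to 40.6% of a library) and the 92 ERCC rows (at most 1 count in a library) were left out, and 56104 of the 60107 identifiers had a symbol in GENCODE 29. No column was left unmapped (0).

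Counts were scaled by TMM and fitted with the quasi-likelihood test of edgeR 4.0.16 under R 4.3.3. Genes needed over 1 count in 2 or more libraries. Fits were made for each comparison on its own 8 libraries and each difference between responses on 16. SE is the absolute log2 fold change divided by the root of the test's F statistic, and 95% intervals use its degrees of freedom. Fits were tested on simulated data. CPM divides by the library's total on genes, and ranges are the lowest and highest library. Library totals in place of TMM shift the median log2 fold change of all genes by -0.17 in U2OS CPT, by -0.19 and -0.20 in the differences from columns 10 to 17 and 1 to 8 and by -0.22 between lines, and by less than 0.1 elsewhere. Counting intervals are exact (95%), and they and floors of 3 counts cover counting error only. No 2 libraries held identical values.

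The 10 genes and the lists were chosen with earlier results of these data known. All 10 genes were named, and of each list up to 4 past the threshold with the largest absolute log2 fold change, except for a result that is not reported here. Among AP-1 targets in columns 10 to 17, the other called genes were also named, after their values were seen. Alternatives were DESeq2 1.42.0, a likelihood ratio test in edgeR, RLE scaling, other filters, no fold cutoff, 1 fit over 32 libraries, grouping by labels, all 8 libraries labelled HEK293T DMSO as controls of the inhibitor, leaving out each library and, chosen after seeing the data, library totals.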

Additional observations from a re-analysis of the deposited data

Results flagged for a closer look

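In 7 of 80 groups of 4 libraries, 1 library stood apart from the other 3 by more than Dixon's 95% critical value, which chance alone does in about 1 group in 20. ATF3 reached 150.2 CPM in column 15 against 52.3 to 58.7 in the other odd columns of columns 10 to 17. In the same group EGR1 had 5.42 CPM in column 13 against 2.66 to 3.11, FOSB 1.11 CPM in column 17 against 0.667 to 0.677 and FOSL1 0.168 CPM in column 11 against 0 in the others, the last being a single count. IER3 had 818 CPM in column 7 against 553 to 595 in the other odd columns of columns 1 to 8, and FOSL2 117 CPM in column 8 against 86.1 to 91.3 in the other even ones. JUND had 114 CPM in column 24 against 85.4 to 89.7 in the other HEK293T DMSO libraries.

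The response of U2OS cells to CPT and that of columns 10 to 17 differed by the test of the difference for FOS (-5.39), JUNB (-3.58), IER3 (-3.47), EGR1 (-3.20), FOSB (-2.95), FOSL2 (-2.01) and ATF3 (2.09), in log2 units with adjusted p from 7.2e-18 to 0.00365 (edgeR). The response of columns 1 to 8 differed from that of U2OS CPT for ATF3 (2.07, adjusted p = 5.75e-08). Cell line, treatment and set cannot be told apart in the comparison with columns 10 to 17, where labels and rule differ on the treatment of most libraries. The study also gives a higher CPT dose for U2OS than for HEK293T cells in the mass spectrometry samples made in parallel. In the comparison with columns 1 to 8, both sets carry U2OS markers, and treatment, clone and set cannot be told apart.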

How the results depend on the processing

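Of 1147 values of single genes under the alternatives, 1115 kept their direction and their side of the threshold or were uncalled in both fits, 19 lost the call, 9 gained it and 4 reversed. A further 29 uncalled values, of 14 gene and comparison pairs, changed sign without passing the threshold and are counted among the 1115. Grouping by the deposited labels ended most calls, with libraries of both marker profiles then falling in 1 arm. By labels, 1 of the 10 genes was called for U2OS ATM KO against WT in place of 7, FOSL1 included, for columns 10 to 17. In that grouping FOSL2 (-2.02, adjusted p = 0.4), EGR1 (-0.16, adjusted p = 0.956) and IER3 (-1.19, adjusted p = 0.596) reversed. For HEK293T CPT against DMSO by labels 0 genes were called in place of 3 for columns 1 to 8, and EGR1 reversed (0.17, adjusted p = 0.93). With all 8 libraries labelled HEK293T DMSO as controls of the inhibitor 0 genes were called, while IER3 (-3.62) and FOSL2 (-3.45) changed sign and EGR1 (-3.84) and FOS (-3.78) moved further down. Without a fold cutoff 8 genes were called in U2OS CPT in place of 5. Leaving out each library in turn gave 3 to 5 genes in U2OS CPT (3 without column 31) and, for the difference between U2OS CPT and columns 1 to 8, 1 to 2 genes. The 2 were also found with library totals, JUND being the added gene (-1.17).

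Counts over all genes moved with the filter: edgeR's filterByExpr gave 1652 calls in place of 2569 in U2OS CPT, 1461 in place of 2718 in columns 10 to 17, 644 in place of 974 in columns 1 to 8 and 5090 in place of 7872 between lines. Without a fold cutoff the first 3 became 6091, 6785 and 2415, and by labels columns 10 to 17 became 631 and columns 1 to 8 rose to 1193. Among the 10 genes, filterByExpr called 4 in place of 5 in U2OS CPT and 6 in place of 7 in columns 10 to 17. It called 6 in place of 8 between lines and 3, as before, in columns 1 to 8. No paired analysis was run because each library carries its own number and no label ties a treated library to a control one. Whether neighbouring columns belong to the same repeat is not given by the labels. FOS, FOSB and FOSL1 had between 2 and 13 counts per arm in HEK293T cells with the inhibitor or its DMSO control.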
